A study of Mus musculus with 15 samples.

Results

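Trbv2, Trbv3 and Trbv4 are the V genes that follow Trbv1 at the upstream end of the mouse T cell receptor (TCR) β locus. Their rearrangements were taken from the deposited files by the assigned V gene name (TCRBV02-01, TCRBV03-01 and TCRBV04-01). Of 29992 rearrangements 4764 carried a gene of this trio, and of the 18614 productive rearrangements with a V gene it held 2777, or 14.9%. Trbv2 accounted for 664 productive rearrangements, Trbv3 for 1263 and Trbv4 for 850. The cells came from untreated female C57BL/6 mice, 6 weeks old when obtained, that carried B16F10GP, a mouse melanoma line with a viral glycoprotein, on both flanks. Tumor 1 was placed in the right flank on day 0 and tumor 2 in the left flank on day 3, and cells were collected on day 19. The lymph node was taken on the side of tumor 1, so tumor 2 against the TdLN does not set a tumor against its own node. CD8+ PD-1+ CD44+ T cells were sorted from the tumor draining lymph node (TdLN), tumor 1 and tumor 2 of 5 mice, which gave 15 samples of genomic DNA, 5 for each tissue. All 15 were controls, so no treatment is compared, and DNA does not show whether the sorted cells had the labelled phenotype.

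A TCR β gene is assembled in the developing thymocyte from a V, a D and a J segment. Each segment is flanked by a recombination signal, made of a heptamer, a spacer and a nonamer, beside which the recombinase cuts. Nucleases then trim the cut ends, non-templated N bases are added, and the joined stretch encodes the CDR3, the loop that contacts the presented peptide. A join is productive when it keeps the reading frame and holds no stop codon. A cell with a productive chain often carries a failed join on its other chromosome, and such out-of-frame joins encode no receptor.

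Productive templates, the estimated genomes that carry a productive rearrangement, numbered 3253 to 9099 in the TdLN, 3600 to 6137 in tumor 1 and 238 to 3975 in tumor 2. Unique productive TCRs, counted as distinct nucleotide rearrangements, numbered 1290 to 5720, 182 to 366 and 50 to 553. Tumor 2 of mouse 4 was the shallowest sample, and a V gene at 0 there may still hold up to 6% of its 50 unique TCRs. Tumor 2 of mice 3 and 5 had only 1.55% and 5.42% of its unique TCRs in the TdLN of the same mouse number, while the TdLN of mouse 2 held 18.1% of those of tumor 2 of mouse 1. The tumor 1 of another number held 21.8% of the TCRs of tumor 2 of mouse 1 (mouse 2, with 28.1% in its own) and 36% of those of tumor 2 of mouse 4 (mouse 5, with 70% in its own). Which mouse each tumor 2 library came from was not settled by these data, so counts by mouse number and n = 5 in tumor 2 rest on the labels, and tumor 2 against TdLN is also given without tumor 2 of mice 3 and 5. Samples from mice 4 and 5 are named in another style than those from mice 1 to 3, and values within each set stand beside the tests that passed. Samples that share a mouse number come from 1 mouse per the study, and the tests compare tissues without pairing.

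The trio lies on the plus strand of chromosome 6 (GRCm38, GENCODE M21). Trbv2 spans chr6:41047340-41047995, Trbv3 chr6:41048290-41048828 and Trbv4 chr6:41059394-41059886, each with 2 exons. Trbv2 and Trbv3 are 294 bases apart, Trbv3 and Trbv4 10565 bases, and Trbv4 and its downstream neighbour Trbv5 2445 bases. Trbv1 lies 155454 bases upstream of Trbv2, and the first D segment 473314 bases downstream of Trbv4. The last 60 bases of each coding sequence, all in exon 2, are shown because the trimming and stop codon results turn on them. Capitals mark the fifth codon of the CDR3, counted from the conserved cysteine codon.
Trbv2, chr6:41047936-41047995: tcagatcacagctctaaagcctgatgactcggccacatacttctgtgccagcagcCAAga
Trbv3, chr6:41048765-41048824: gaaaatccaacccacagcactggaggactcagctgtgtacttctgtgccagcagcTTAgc
Trbv4, chr6:41059827-41059886: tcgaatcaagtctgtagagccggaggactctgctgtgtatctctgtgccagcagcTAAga
Trbv5, chr6:41062744-41062803: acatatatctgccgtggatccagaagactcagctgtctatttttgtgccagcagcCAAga

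The fifth codon reads CAA in Trbv2 and Trbv5, TTA in Trbv3 and TAA, a stop codon, in Trbv4. Over the 15 samples 20 V genes averaged 1% or more of unique productive TCRs, and among these Trbv4 alone has a stop codon among the germline codons of its CDR3. The 39 bases after each coding end hold the recombination signal, shown with heptamer and nonamer in capitals.
Trbv2 signal, chr6:41047996-41048034: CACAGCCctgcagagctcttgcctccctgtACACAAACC
Trbv3 signal, chr6:41048825-41048863: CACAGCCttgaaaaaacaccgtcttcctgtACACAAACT
Trbv4 signal, chr6:41059887-41059925: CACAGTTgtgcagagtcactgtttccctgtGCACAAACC
Trbv5 signal, chr6:41062804-41062842: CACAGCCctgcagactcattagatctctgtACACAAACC

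Set against the most frequent base at each position over the 20 V genes, the heptamer differed at 2 positions in Trbv2 and Trbv3 and at 1 in Trbv4, while 6 of the 20 genes had no difference. The nonamer differed at 1 position in Trbv2 and at 2 in Trbv3 and Trbv4, against up to 4 in the 20 genes. Trbv2 and Trbv5 have the same heptamer and the same nonamer.

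In the TdLN the summed share of the trio among unique productive TCRs was 15.2%, 15.3%, 15.3%, 15% and 15.3% in mice 1 to 5. Trbv3 was the most used of them, with 6.98%, 7.06%, 6.12%, 6.8% and 7.4%, and at 6.87% ± 0.471 (SD, n = 5) ranked 4 of the 20 V genes. Its range overlapped those of its neighbours in rank, Trbv19 (8.09% ± 1.52) and Trbv16 (6.73% ± 0.522). Trbv4 held 4.23%, 4.97%, 5.19%, 4.51% and 4.29%, which at 4.64% ± 0.425 (SD, n = 5) ranked 12, between Trbv1 (4.99% ± 0.361) and Trbv14 (3.87% ± 0.70), whose ranges it overlapped. Trbv2 held 4.01%, 3.25%, 4.03%, 3.72% and 3.62%, which at 3.73% ± 0.32 (SD, n = 5) ranked 14, and its range overlapped those of Trbv14 and Trbv15 (2.78% ± 0.512). The ranges of the 3 genes did not overlap each other.

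Shares by reading frame differed among the genes. Trbv4 took a smaller share of productive than of out-of-frame TdLN rearrangements, Trbv3 took a larger one, and Trbv2 did not pass the test. By definition a Trbv4 join that keeps its stop codon in frame does not count as productive. Joins with a stop codon were 15.5% ± 3.28 of in-frame Trbv4 joins in the TdLN (SD, n = 5). A lower productive share of Trbv4 was thus favoured in advance, and no conclusion is drawn from its test below. The part of the stop codon in the lower share was not tested. The other V genes that passed with a lower productive share were Trbv5 (5.21% against 6.47% out of frame), Trbv15, Trbv24 and Trbv31. None of these has a germline stop codon in its CDR3. Trbv4 made up 5.3%, 6.73%, 6.16%, 7.91% and 7.95% of unique out-of-frame rearrangements in mice 1 to 5, above its productive share in each mouse. The means were 6.81% ± 1.14 out of frame and 4.64% ± 0.425 productive (SD, n = 5; two-sided exact permutation test, p = 0.00794, adjusted p = 0.0159 over the 20 V genes). In rank it stood 3 of 20 out of frame. Trbv3 held 5.3%, 6.15%, 5.59%, 6.36% and 5.27% out of frame, and its productive share was higher in 5 of 5 mice, 6.87% ± 0.471 against 5.74% ± 0.498 (SD, n = 5; exact permutation test, p = 0.0238, adjusted p = 0.0433). Trbv2 held 3.21%, 4.64%, 4.0%, 3.7% and 4.61% out of frame, with means of 4.03% ± 0.61 and 3.73% ± 0.32 productive (SD, n = 5; exact permutation test, adjusted p = 0.411). Of the 20 V genes 55% passed, 30% higher and 25% lower among productive TCRs, so passing was common and 2 of 3 members is near the background. In percentage points, productive minus out of frame, Trbv4 differed by -1.27 ± 0.43 within mice 1 to 3 (SD, n = 3) and by -3.53 ± 0.186 within mice 4 and 5 (SD, n = 2), and Trbv3 by 1.04 ± 0.585 and 1.28 ± 1.2. With shares of templates neither passed (exact permutation tests, adjusted p = 0.0882 for Trbv4 and 0.181 for Trbv3), and Trbv3 also failed when all V genes were tested (0.0524) or when 2 templates were required (0.0661).

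**Figure D1:**
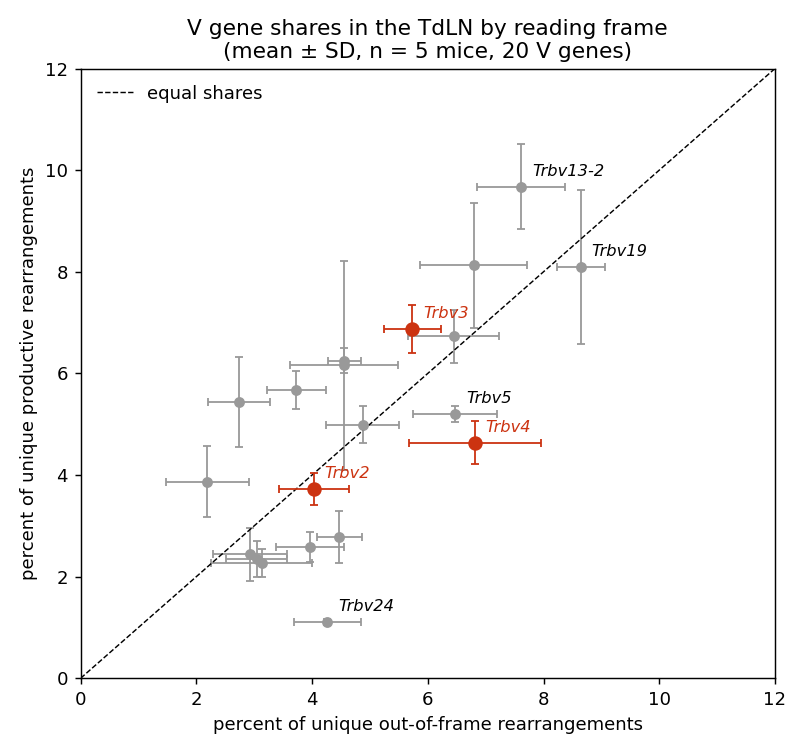
Each point is a V gene in the TdLN, with its mean percent of unique out-of-frame rearrangements on the x axis and of unique productive rearrangements on the y axis (whiskers SD, n = 5 mice, 20 V genes). Trbv4 (6.81% against 4.64%) lies below the dashed line of equal shares, Trbv3 (5.74% against 6.87%) above it, and Trbv2 (4.03% against 3.73%) near it.

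Joins with a stop codon set Trbv4 apart more clearly. Over all samples 363 in-frame rearrangements held a stop codon, and 150 of them, or 41.3%, used Trbv4, which made up 5.84% of all rearrangements. Trbv2 gave 7, Trbv3 gave 12, and the V gene next in number, Trbv24, gave 33. In the TdLN joins with a stop codon took 9.52%, 12.6%, 6.2%, 9.13% and 8.62% of the unique Trbv4 rearrangements of mice 1 to 5. The mean of 9.21% ± 2.28 was above the 0.738% ± 0.20 of all other V genes in 5 of 5 mice (SD, n = 5). Trbv4 alone of the 20 V genes has a germline stop codon in its CDR3, which favoured this outcome in advance. Its values are therefore given with no test. This comparison of stop codon shares was added after the counts had been seen. Trbv2, at 0.891% ± 0.866, and Trbv3, at 1.01% ± 0.749 (SD, n = 5), did not pass against their own remainder of V genes (exact permutation tests, adjusted p = 0.529 and 0.607). Their remainders, at 1.25% ± 0.251 and 1.25% ± 0.296, include Trbv4, while V genes outside the trio had 0.709% ± 0.226 (SD, n = 5). With Trbv4 counted, 40% of the 20 V genes passed, 10% higher and 30% lower, and Trbv4 had the largest difference of the 20. Every other V gene was set against a remainder that holds Trbv4, so lower calls partly carry its stop codon joins. How many would pass without Trbv4 in the remainder was not tested. The Trbv4 difference was 8.67 ± 3.25 percentage points within mice 1 to 3 (SD, n = 3), against 8.18 ± 0.321 within mice 4 and 5 (SD, n = 2). Productive joins made up 50.04% ± 3.88 of unique Trbv4 rearrangements in the TdLN, 61.8% ± 6.36 of Trbv2, 67.5% ± 3.66 of Trbv3 and 64.1% ± 3.13 of the V genes outside the trio (SD, n = 5).

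The germline stop codon could be followed in the reads. Over all samples TAA was the fifth codon of the CDR3 in 132 of the 150 Trbv4 joins with a stop codon, in 247 of 752 out-of-frame joins and in 0 of 850 productive joins, where the definition of productive bars it. Only 10 productive Trbv4 joins had lost 2 or fewer V bases, and the fifth codon of these read TTA in 3, CAA in 3, TCA in 3 and AAA in 1. The 150 joins with a stop codon held 251 templates, and the most abundant held 14.

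Trimming of the V end differed among the 3 genes. In the TdLN the mean number of V bases lost in productive joins of mice 1 to 5 was 1.17, 0.642, 1.15, 0.948 and 0.952 for Trbv2, which was mostly left whole. For Trbv3 it was 3.12, 3.14, 3.29, 3.38 and 3.13, and for Trbv4 4.6, 4.52, 4.63, 4.62 and 4.68. The 3 ranges did not overlap. The stop codon of Trbv4 ends 2 bases before its coding end, so a join that kept it in frame could not be productive, and its productive values are given with no test. Against all other V genes Trbv2 had lost fewer bases (0.972 ± 0.213 against 2.72 ± 0.148) and Trbv3 more (3.21 ± 0.116 against 2.61 ± 0.157), both in 5 of 5 mice (SD, n = 5; two-sided exact permutation test, p = 0.00794 and adjusted p = 0.0113 for both). As many as 75% of the 20 V genes passed, 35% with more and 40% with fewer bases lost, so passing was common. In mice 1 to 3 the differences were -1.84 ± 0.308 bases for Trbv2 and 0.454 ± 0.0664 for Trbv3 (SD, n = 3), and those of mice 4 and 5 were -1.61 ± 0.00956 and 0.812 ± 0.175 (SD, n = 2). Weighted by templates Trbv3 (0.161 bases) did not pass (exact permutation test, adjusted p = 0.902). Out-of-frame joins are not bound by the stop codon, and there Trbv4 differed from the other V genes by 0.247 bases and did not pass (exact permutation test, adjusted p = 0.476).

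The profiles show where the frames part. No V base was lost in 64.2% ± 7.04 of productive Trbv2 TCRs of the TdLN, 5.44% ± 0.825 of Trbv3, 0.73% ± 1.02 of Trbv4 and 23.6% ± 3.05 of V genes outside the trio (SD, n = 5). Loss of 2 or fewer bases was seen in 81.1% ± 3.88 of productive and 77.8% ± 5.63 of out-of-frame Trbv2 joins, and in 32.3% ± 5.4 and 30.1% ± 2.27 of Trbv3 joins (SD, n = 5). In Trbv4 it was seen in 1.14% ± 1.52 of productive, 34% ± 10.2 of out-of-frame and 92.6% ± 6.96 of stop codon joins (SD, n = 5). Productive Trbv4 joins had most often lost 4 or 5 bases, in 237 and 268 of 708, and the same 2 values led out of frame, with 135 and 155 of 634.

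**Figure D2:**
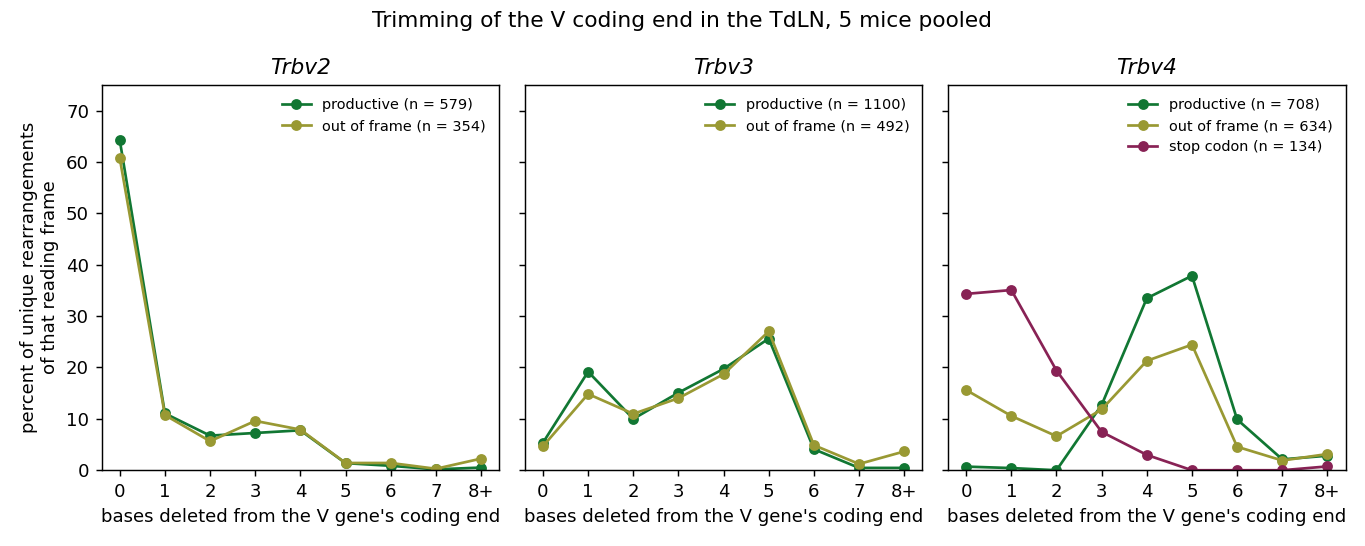
The x axis gives the bases missing from the V coding end and the y axis the percent of unique TdLN rearrangements of that gene and reading frame, 5 mice pooled. Trbv2 peaks at 0 bases in both frames, Trbv3 at 5, and productive Trbv4 joins are nearly absent at 0 to 2 bases, where 46, 47 and 26 of its 134 joins with a stop codon lie.

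The start of the CDR3 was read as residues. In the TdLN the first 4 were cysteine, alanine, serine and serine in 98.4% ± 1.37 of productive Trbv2 TCRs, 96.7% ± 1.49 of Trbv3 and 88.9% ± 0.927 of Trbv4 (SD, n = 5). The fifth residue of Trbv2 was glutamine, which its germline codon encodes, in 85% ± 4.77. In Trbv3 it was leucine, also the germline residue, in 38.8% ± 7.47, phenylalanine in 17.4% ± 10.3 and serine in 13.2% ± 4.33. Trbv4 was more spread, with serine in 20.4% ± 7.62, proline in 16.2% ± 6.07, tyrosine in 13.1% ± 2.57 and leucine in 10.4% ± 1.75 (SD, n = 5).

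Among the 3 genes CDR3 length followed the same order as the V bases kept. In the germline each of the 3 gives 17 V bases to the CDR3, while the 20 V genes range from 14 (Trbv20 and Trbv31) to 17. Comparisons of length with other V genes include this germline difference, and its part was not tested. Mean lengths in mice 1 to 5 were 44.4, 45.1, 45.2, 44.2 and 44.3 bases for Trbv2, 43.2, 43.4, 43.4, 42.6 and 42.7 for Trbv3 and 41.5, 42, 41.8, 41.8 and 41.8 for Trbv4, with no overlap between the genes. Trbv2 was longer than all other V genes (44.7 ± 0.478 against 41.9 ± 0.231) and so was Trbv3 (43.1 ± 0.384 against 42 ± 0.228), in 5 of 5 mice (SD, n = 5; two-sided exact permutation test, adjusted p = 0.0198 for both). Trbv4, at 41.8 ± 0.158 against 42.1 ± 0.245 (SD, n = 5), did not pass (exact permutation test, adjusted p = 0.111). Of the 20 V genes 40% passed, 20% longer and 20% shorter, and 45% had an unadjusted p under 0.05. The Trbv2 difference was 2.84 ± 0.589 bases within mice 1 to 3 (SD, n = 3), against 2.52 ± 0.00641 within mice 4 and 5 (SD, n = 2). For Trbv3 the differences were 1.22 ± 0.275 and 0.904 ± 0.101. Weighted by templates neither passed (exact permutation tests, adjusted p = 0.0794 for both). N insertions averaged 3.72 ± 0.442 bases in Trbv2, 3.79 ± 0.368 in Trbv3 and 3.75 ± 0.234 in Trbv4 (SD, n = 5). By exact permutation test 0% of the 20 V genes passed for N insertions, and 5% had an unadjusted p under 0.05.

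Among J partners, Trbv4 took the Trbj2 cluster, the downstream group of J genes, more often than other V genes. Its Trbj2 share in the TdLN was 70.2%, 70.4%, 74.6%, 75.6% and 75.5% in mice 1 to 5, where all other V genes together had 68.1%, 68.3%, 68.1%, 65.7% and 64.7%. The groups did not overlap, with 73.3% ± 2.75 against 67% ± 1.68 (SD, n = 5; two-sided exact permutation test, p = 0.00794, adjusted p = 0.0397). Trbv2 (63%, 60.4%, 78.8%, 67.6% and 66.2%) and Trbv3 (70.2%, 68.7%, 72.2%, 68.1% and 62.2%) did not pass (exact permutation tests, adjusted p = 0.992 and 0.602), and 20% of the 20 V genes did, all with a higher share. The Trbv4 difference was 3.54 ± 2.58 percentage points within mice 1 to 3 (SD, n = 3), against 10.4 ± 0.659 within mice 4 and 5 (SD, n = 2). The call was lost in out-of-frame joins (4.93 points, adjusted p = 0.132), with 2 templates required (8.2, 0.0794) and weighted by templates (7.97, 0.159, exact permutation tests).

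Trbj2-7 was the J gene most often joined to each member in the TdLN, in 21% ± 1.27 of unique productive Trbv2 TCRs, 23.4% ± 3.24 of Trbv3 and 22.2% ± 5.37 of Trbv4 (SD, n = 5). Of the J genes found in all 5 TdLN, the least used was Trbj1-3 with Trbv2 (4.08% ± 1.42), Trbj1-6 with Trbv3 (1.75% ± 0.928) and Trbj2-2 with Trbv4 (2.91% ± 2.74). Trbj2-5 made up 16.9% ± 3.09 of Trbv4 TCRs and 10.9% ± 0.576 of those of V genes outside the trio. Trbj2-1 made up 11% ± 1.82 of unique Trbv3 TCRs in the TdLN, against 20.2% ± 17 in tumor 1 and 39% ± 15.6 for tumor 2 (SD, n = 5). These single J genes were not tested. In tumor 1, 14 of 72 unique Trbv3 TCRs used Trbj2-1 and 9 had the CDR3 pattern of the Trbv3-Trbj2-1 TCRs given below. In tumor 2 these were 35 and 24 of 91. The tumor values also include small rearrangements near a far larger one, and the part of both in the Trbj2-1 share was not tested.

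**Figure D3:**
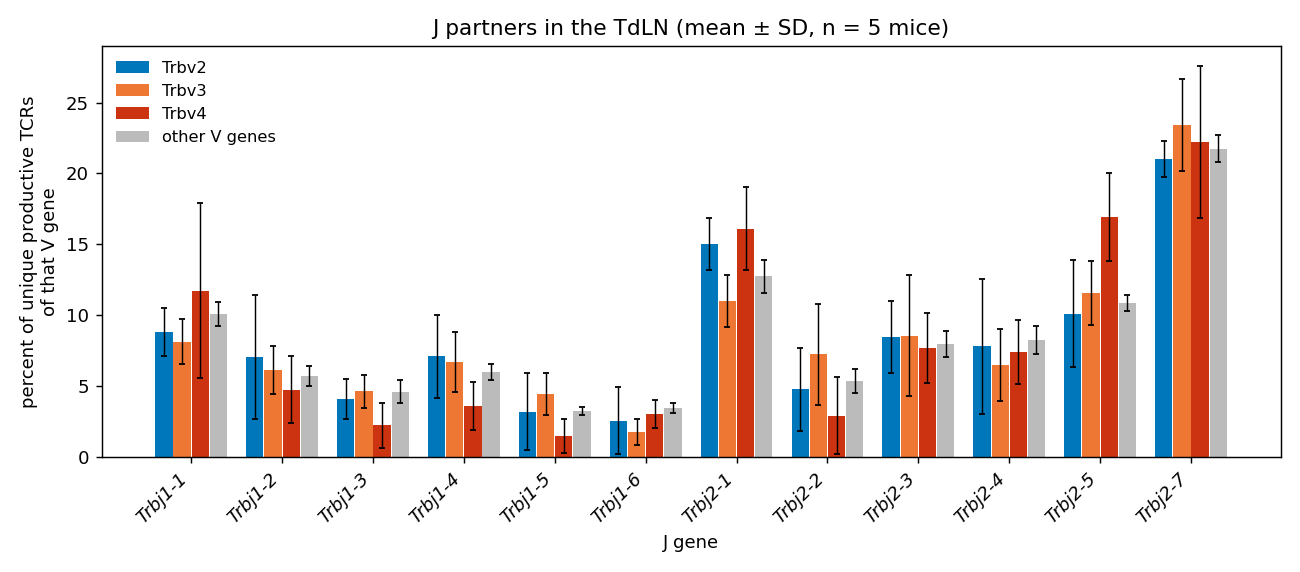
Bars give the mean percent of unique productive TdLN TCRs of each V gene (y axis) that use each J gene (x axis), with SD over 5 mice, for the members and the V genes outside the trio. Trbj2-7 is highest for each member, at 21.0% to 23.4%, and Trbv4 stands above the others at Trbj2-5 with 16.9%.

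Unique usage in the tumors was compared with the TdLN next. The comparisons share the TdLN samples. In tumor 1 Trbv2 held 3.67%, 1.71%, 5.49%, 3.55% and 2.98% of unique productive TCRs in mice 1 to 5, Trbv3 5.31%, 6.16%, 6.59%, 4.1% and 4.17%, and Trbv4 9.8%, 4.11%, 5.49%, 1.91% and 3.27%. Each gene varied more between tumors than between lymph nodes, and all 3 overlapped their TdLN range. Counting error is also wider in tumor 1, with 182 to 366 unique TCRs against 1290 to 5720 in the TdLN. Its part in the spread was not tested. The mean difference from the TdLN was -0.246 percentage points for Trbv2, -1.61 for Trbv3 and 0.279 for Trbv4 (exact permutation tests, n = 5, adjusted p = 0.823, 0.0952 and 0.979). By this test 0% of the 20 V genes passed and 35% had an unadjusted p under 0.05, and edgeR called 1 V gene, or 0 with mouse as a block.

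In tumor 2 Trbv2 held 2.42%, 2.49%, 2.58%, 0% and 2.89%, below the TdLN of the same number in 5 of 5 mice and below the whole TdLN range. The difference was -1.65 percentage points (2.07% ± 1.17 against 3.73% ± 0.32, SD, n = 5; exact permutation test, p = 0.00794, adjusted p = 0.159), and -1.13 without the shallow tumor 2 of mouse 4. Trbv3 held 5.74%, 6.35%, 10.3%, 6% and 4.7% and Trbv4 7.25%, 6.08%, 5.67%, 0% and 3.8%, with differences of -0.251 and -0.0792 percentage points (exact permutation tests, n = 5, adjusted p = 0.944 and 0.968). Other definitions of a TCR moved these values. With V gene, J gene and CDR3 residues Trbv3 gave -1.43 (p = 0.0159, adjusted p = 0.159), without small rearrangements near a far larger one -1.38 (p = 0.0397, adjusted p = 0.159), and without rearrangements of another mouse 1.5 (adjusted p = 0.556, exact permutation tests). Trbv4 gave -1.83 without rearrangements of another mouse (p = 0.0556, adjusted p = 0.222), -2.23 out of frame (adjusted p = 0.278) and 1.48 with 2 templates required (adjusted p = 0.654, exact permutation tests). Leaving out mice 3 and 5 from tumor 2 gave -2.09 for Trbv2, -0.84 for Trbv3 and -0.196 for Trbv4 (exact permutation tests, adjusted p = 0.051, 0.119 and 0.911). Here 0% of V genes passed, 30% had an unadjusted p under 0.05, and edgeR called 2 V genes with and without the block. Between tumor 1 and tumor 2, 0% passed by exact permutation test and 10% had an unadjusted p under 0.05.

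**Figure D4:**
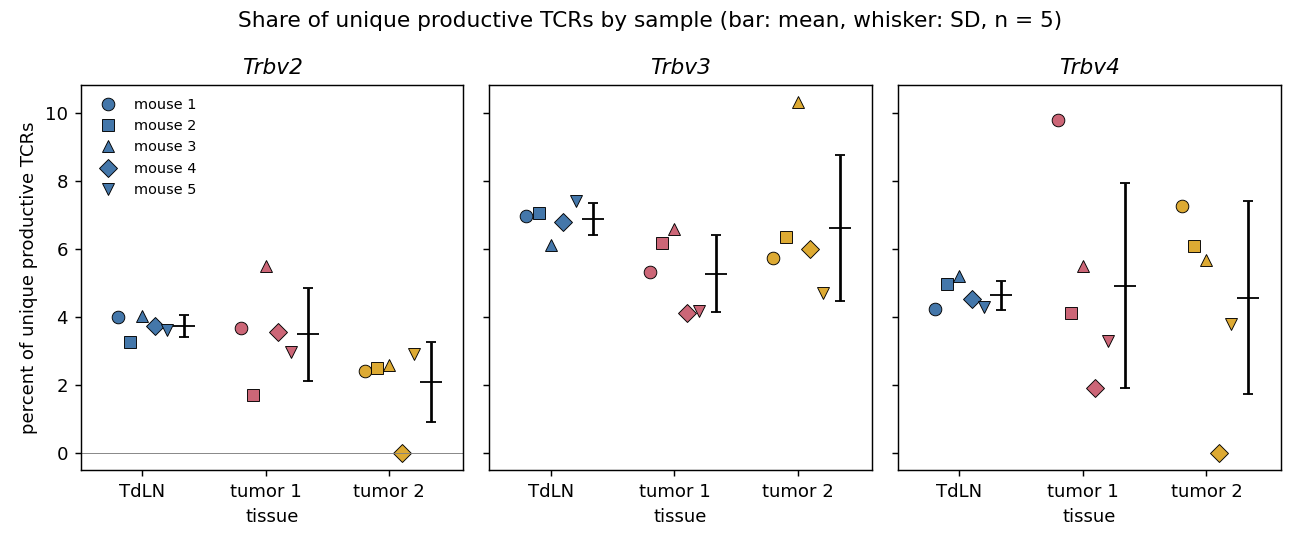
Each symbol is a sample, with its percent of unique productive TCRs on the y axis and the tissue on the x axis, for each of the 3 genes (marks beside the symbols give the mean and SD, n = 5). TdLN values lie close together (3.25% to 4.03% for Trbv2), while tumor values of Trbv4 run from 0 to 9.80%.

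Templates weigh each TCR by its abundance, and here Trbv4 stood lower in tumor 1. It held 5.29%, 4.86%, 4.72%, 4.09% and 4.55% of productive templates in the TdLN of mice 1 to 5 and 2.05%, 2.02%, 0.831%, 0.189% and 1.5% in tumor 1. The groups did not overlap, and the share fell by 3.38 percentage points, from 4.7% ± 0.439 to 1.32% ± 0.804 (SD, n = 5; two-sided exact permutation test, p = 0.00794, adjusted p = 0.0397). Of the 20 V genes 20% passed, each of them lower in tumor 1. The difference was -3.32 ± 0.533 percentage points within mice 1 to 3 (SD, n = 3), against -3.48 ± 0.603 within mice 4 and 5 (SD, n = 2). The call was lost without rearrangements found in another mouse (-1.74 points, adjusted p = 0.397) and with all V genes tested (adjusted p = 0.0508, exact permutation tests). Out-of-frame templates, which encode no receptor, gave a difference of -4.45 points (exact permutation test, adjusted p = 0.0794).

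Template shares of Trbv2 and Trbv3 in tumor 1 spread widely between mice. Trbv2 held 5.42%, 2.74%, 9.87%, 3.72% and 5.0% of templates in the TdLN and 5.2%, 0.476%, 13.1%, 1.06% and 8.58% in tumor 1. Trbv3 held 7.33%, 6.58%, 5.69%, 6.58% and 6.95% and 17.2%, 2.52%, 1.16%, 1.09% and 7.11%. Neither passed in tumor 1 (exact permutation tests, n = 5, adjusted p = 1 for both). The most abundant TCR of a sample held 32.1% to 90.9% of the Trbv2 templates of tumor 1 and 28.3% to 97.8% of those of Trbv3. With that TCR left out of the sample, Trbv2 came to 0.936%, 0.191%, 7.38%, 0.719% and 0.844% in mice 1 to 5 and Trbv3 to 0.451%, 1.54%, 0.833%, 0.569% and 0.919%. Tumor 1 of mouse 3 kept the highest Trbv2 share, while Trbv3 of mouse 1 dropped below that of the other 4.

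In tumor 2 Trbv2 held 3.57%, 1.4%, 0.259%, 0% and 3.24% of templates, Trbv3 16.7%, 9.36%, 30.6%, 2.1% and 2.47% and Trbv4 4.7%, 4.55%, 9.36%, 0% and 2.13%. Trbv3 was above its TdLN range in mice 1 to 3 and below it in mice 4 and 5. With the most abundant Trbv3 TCR left out of each sample, it came to 6.84%, 5.78%, 9.75%, 0.851% and 2.23%. None of the 3 passed against the TdLN by exact permutation test (n = 5, adjusted p = 0.106, 0.612 and 0.831), 0% of the 20 V genes passed, and 40% had an unadjusted p under 0.05. For Trbv2, lower in 5 of 5 mice, limma on log2 shares did pass (adjusted p = 0.0359 unblocked and 0.00283 with mouse as a block). At a pseudocount of 0.1 limma called 5 of the 20 V genes without and 5 with the block. Without tumor 2 of mice 3 and 5 it called 7. The log2 shares include the 0% of tumor 2 of mouse 4, where 238 templates leave room for up to 1.26%. The blocked fit used a pseudocount of 0.1. Both the block and the count of mice rest on the mouse numbers of tumor 2. Without mice 3 and 5 in tumor 2 the Trbv2 difference went from -3.66 to -3.7 percentage points (exact permutation test, adjusted p = 0.162; limma, 0.045), that of Trbv3 from 5.63 to 2.77 and that of Trbv4 from -0.553 to -1.62. Out of frame, Trbv4 differed by -3.96 (exact permutation test, p = 0.0159, adjusted p = 0.106). Between the tumors 0% passed by exact permutation test and 5% had an unadjusted p under 0.05.

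**Figure D5:**
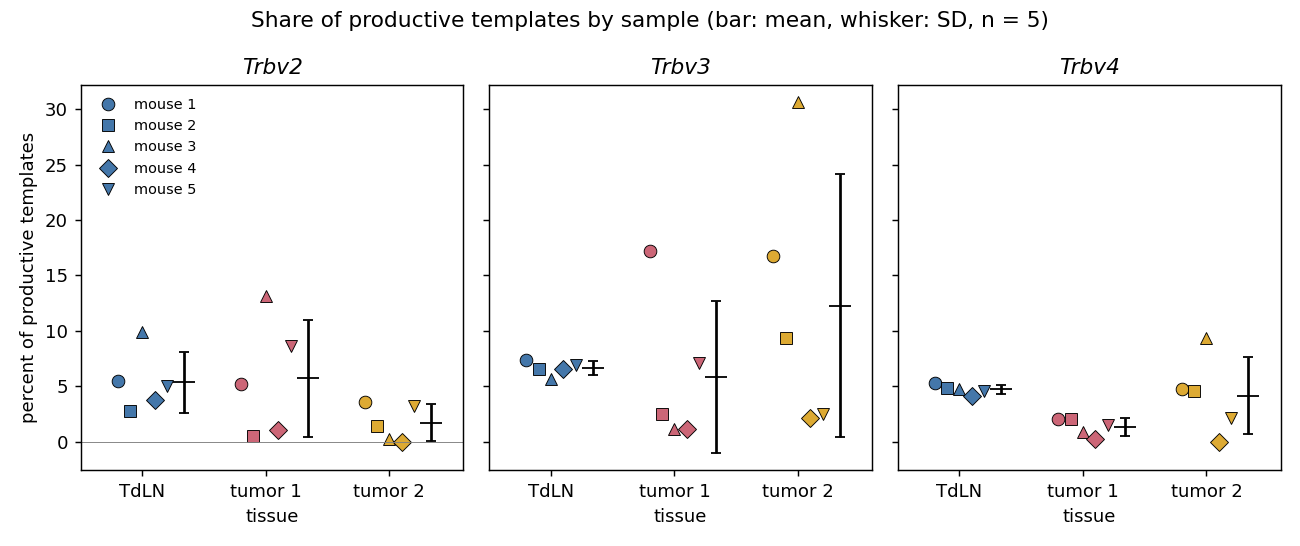
Each symbol is a sample, with its percent of productive templates on the y axis and the tissue on the x axis, for each of the 3 genes (marks beside the symbols give the mean and SD, n = 5). Trbv4 in tumor 1 (0.189% to 2.05%) lies below its TdLN values (4.09% to 5.29%), and Trbv3 reaches 30.6% in tumor 2 of mouse 3.

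Clone size was the mean number of templates for each unique productive TCR. For Trbv4 it was 3.51, 1.95, 2.78, 1.38 and 1.69 in the TdLN and 5.25, 7.08, 3.3, 1.43 and 4.91 in tumor 1 of mice 1 to 5. All other V genes had 2.77, 2.0, 3.07, 1.53 and 1.59 in the TdLN and 27.2, 14.7, 22.9, 14.7 and 10.9 in tumor 1. The log2 ratio of Trbv4 to the others was 0.02 ± 0.20 in the TdLN and -2.15 ± 1.02 in tumor 1 (SD, n = 5; two-sided exact permutation test, p = 0.00794, adjusted p = 0.0529), lower in 5 of 5 mice. It missed the threshold, as did every V gene (0% passed and 35% had an unadjusted p under 0.05). Where 2 templates were required Trbv4 passed (exact permutation test, adjusted p = 0.0454). Other V genes passed with it at that setting, 7 in all, so the call was not particular to Trbv4. Without rearrangements of another mouse the log2 difference of Trbv4 was -0.93, against -2.17 with them (exact permutation test, adjusted p = 0.159). The share of tumor 1 TCRs found in the TdLN of the same mouse was 40.2% ± 23.2 for Trbv2, 30.2% ± 25.3 for Trbv3 and 44.8% ± 26.7 for Trbv4 (SD, n = 5), and 0% of V genes differed from the others by exact permutation test, adjusted or not.

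The TCRs are shown as read that were, for each gene, the most abundant in any sample of each tissue. Capitals mark the CDR3 from its cysteine codon to the end of the 87-base read.
Trbv2-Trbj2-1 TCR of mouse 3: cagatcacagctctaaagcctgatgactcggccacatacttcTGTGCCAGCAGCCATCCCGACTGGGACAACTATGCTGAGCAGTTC
Trbv2-Trbj1-4 TCR of mouse 5: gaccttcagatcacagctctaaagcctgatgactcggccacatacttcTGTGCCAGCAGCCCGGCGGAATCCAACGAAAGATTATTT
Trbv2-Trbj1-5 TCR: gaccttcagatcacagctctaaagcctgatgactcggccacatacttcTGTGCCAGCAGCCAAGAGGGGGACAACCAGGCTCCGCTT
First Trbv3-Trbj2-1 TCR: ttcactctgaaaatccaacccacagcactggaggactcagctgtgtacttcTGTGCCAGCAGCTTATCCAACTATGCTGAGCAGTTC
Second Trbv3-Trbj2-1 TCR: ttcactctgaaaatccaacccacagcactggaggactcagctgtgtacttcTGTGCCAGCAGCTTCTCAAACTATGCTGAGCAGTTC
Trbv4-Trbj2-1 TCR: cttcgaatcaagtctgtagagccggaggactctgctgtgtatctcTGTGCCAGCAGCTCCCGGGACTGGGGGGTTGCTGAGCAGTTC
First Trbv4-Trbj2-7 TCR: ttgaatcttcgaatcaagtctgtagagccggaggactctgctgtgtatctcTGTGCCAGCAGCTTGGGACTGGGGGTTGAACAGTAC
Second Trbv4-Trbj2-7 TCR: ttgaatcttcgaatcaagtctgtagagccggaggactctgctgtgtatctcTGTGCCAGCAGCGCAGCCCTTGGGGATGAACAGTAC

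The Trbv2-Trbj2-1 TCR of mouse 3 had 202 templates in the TdLN and 247 in tumor 1 of mouse 3 and none elsewhere. The Trbv2-Trbj1-4 TCR had 26 in the TdLN and 281 in tumor 1 of mouse 5. Both were seen in 1 mouse and not in its tumor 2. The Trbv2-Trbj1-5 TCR, with no V base lost and no N base, was spread over 4 mice. Mouse 1 had 93, 264 and 112 templates of it in its TdLN, tumor 1 and tumor 2, mouse 2 had 24 (tumor 2), mouse 4 had 9 (TdLN), and mouse 5 had 6 (TdLN) and 33 (tumor 2).

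The first Trbv3-Trbj2-1 TCR had 106, 1035 and 422 templates across TdLN, tumor 1 and tumor 2 of mouse 1, and made up 16.9% of productive templates in tumor 1 of mouse 1. It also had 88 in tumor 2 of mouse 2 and 5 or fewer in each of 4 other samples. The second had 891 templates in tumor 2 of mouse 3, or 23.1% of that sample, with 182 and 128 in tumor 2 of mice 1 and 2 and none in any TdLN or tumor 1.

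Over all mice, the largest Trbv4 TCR had fewer templates than the largest of Trbv2 and Trbv3 in the TdLN (38 against 202 and 106). The same held in tumor 1 (53 against 281 and 1035). Mouse 2 had the reverse order, with 29 for Trbv4 against 5 for Trbv2 and 7 for Trbv3 in the TdLN. In its tumor 1 these were 53, 12 and 42. In tumor 2 the largest Trbv4 TCR, with 206 templates, stood between those of Trbv2 (112) and Trbv3 (891). The Trbv4-Trbj2-1 TCR had 38, 43 and 5 templates in the TdLN, tumor 1 and tumor 2 of mouse 1 and 4 in tumor 2 of mouse 2. The first Trbv4-Trbj2-7 TCR had 29, 53 and 33 in the 3 tissues of mouse 2 and 2 in tumor 2 of mouse 1. The second, with 8 N bases, had 90, 47 and 206 templates in tumor 2 of mice 1, 2 and 3 and none in any TdLN or tumor 1.

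Few rearrangements were found in more than 1 mouse number. Of distinct productive nucleotide rearrangements, 7 of 626 were shared in Trbv2 (1.12%), 20 of 1193 in Trbv3 (1.68%) and 23 of 772 in Trbv4 (2.98%). Over the 20 V genes this ran from 0.769% in Trbv26 to 4.26% in Trbv5. Summed over mice, shared rearrangements held 8.95%, 8.75% and 8.37% of the templates of Trbv2, Trbv3 and Trbv4 in the TdLN, 25.5%, 71.9% and 50.6% in tumor 1, and 77.1%, 94.4% and 90.9% in tumor 2. Over the 20 V genes the template shares ran from 0.515% to 21.9% in the TdLN, 3.39% to 93.8% in tumor 1 and 6.98% to 94.4% in tumor 2. High shares in the tumors were thus not particular to the trio. Single mice set several of the sums of the trio. In tumor 1 of mouse 1 shared rearrangements held 313 of 319 Trbv2 templates and 1041 of 1058 Trbv3 templates, and the tumor 1 share without mouse 1 was 0% for Trbv2, 11.8% for Trbv3 and 35.2% for Trbv4. Tumor 1 of mice 3 to 5 held 0 shared Trbv2 templates, 0 of Trbv4 and 1 of Trbv3. Without mouse 3 the tumor 1 share of Trbv2 was 44.5%. In the TdLN without mouse 1 the shares were 1.83%, 3.04% and 3.95%. In tumor 2 mice 1 to 3 held nearly all of the shared templates of Trbv3 and Trbv4, mouse 5 had 21.6% and 22.7% of its own shared, mouse 4 held 0 of 5 of Trbv3, and leaving out a mouse gave 57.3% to 85.9% for Trbv2, 90.7% to 96.1% for Trbv3 and 82.8% to 95.1% for Trbv4. By CDR3 residues, 566 of 582 Trbv2, 1069 of 1106 Trbv3 and 696 of 731 Trbv4 sequences were seen in 1 mouse. Besides the TCRs above, a CDR3 of Trbv2 with Trbj2-4 was seen in 3 mice with 25 templates, all in the TdLN, and a CDR3 of Trbv4 with Trbj1-1, with 28, 17 and 54 templates, in tumor 2 of mice 1, 2 and 3. The source of the sharing between mice was not tested.

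Related CDR3s recurred, by patterns chosen after their values were seen and therefore not tested. Glycine, leucine and glycine directly after the fifth residue, which itself was free, with cysteine, alanine, serine and serine before it, opened 48 of 708 unique Trbv4 TCRs in the TdLN (6.78%), 17 of 64 in tumor 1 (26.6%) and 18 of 78 in tumor 2 (23.1%). Other V genes had it in 1.91%, 1.4% and 1.42%. With a mouse left out the pooled Trbv4 shares ranged from 5.93% to 8.22%, 22.5% to 29.8% and 20.4% to 25.4%. Single mice spread more widely. TdLN counts in mice 1 to 5 were 8 of 57, 2 of 81, 10 of 67, 11 of 258 and 17 of 245. Tumor 1 gave 8 of 24, 3 of 12, 3 of 10, 0 of 7 and 3 of 11. Tumor 2 gave 7 of 24, 6 of 22, 1 of 11 and 4 of 21 in mice 1, 2, 3 and 5. Mouse 4 had no productive Trbv4 TCR there. The CDR3 of the Trbv3-Trbj2-1 pair above, with any residue at the fifth place, made up 9 of 1100 unique Trbv3 TCRs in the TdLN, 9 of 72 in tumor 1 and 24 of 91 in tumor 2. Other V genes had it in 0.00685%, 0.148% and 0.357%. Tumor 1 of mouse 1 gave 6 of its 9, and without mouse 1 the pattern stood at 3 of 59 in tumor 1 (5.08% in place of 12.5%), 13 of 72 in tumor 2 and 5 of 1006 in the TdLN. By mouse it was in 6 of 13, 1 of 18, 0 of 12, 0 of 15 and 2 of 14 TCRs of tumor 1 and 11 of 19, 3 of 23, 8 of 20, 0 of 3 and 2 of 26 of tumor 2. Beside it, 5 of 13 Trbv3 TCRs in tumor 1 of mouse 1, 9 of 19 in tumor 2 of mouse 1 and 10 of 20 in tumor 2 of mouse 3 shared their last 40 bases with a TCR at least 50 times as abundant in the same sample, and their part in the count was not tested.

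Over the 15 samples, the V genes whose share of unique TCRs ran most like that of Trbv2 were Trbv12-1 (Spearman rho = 0.711) and Trbv26 (0.611). For Trbv3 they were Trbv13-3 (0.318) and Trbv4 (0.314), and for Trbv4 its neighbour Trbv5 (0.457) and Trbv3 (0.314). Trbv2 ran no closer to Trbv3 (0.189) or Trbv4 (0.193). These are descriptions over samples that share mice and differ in depth.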

How the data were processed

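Rearranged TCR β genes were read from genomic DNA of sorted CD8+ PD-1+ CD44+ T cells with the immunoSEQ assay, whose provider assigned genes and reading frames. The deposited counts are templates per distinct 87-base rearrangement, without normalization, and equalled the deposited estimate of genomes in 100% of rows. The deposited fraction, although headed as a percentage, equals count over sample total, and was not used. The numbers of deleted and inserted bases and the positions in the read were used as deposited. The submitters' processing notes name mm10, and the software of the provider is not given in the sources used here. Coding ends were matched to GRCm38.

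Shares were computed from productive rearrangements, leaving out 16 rearrangements without a V gene. Every V gene with a mean share of at least 1% (20) was tested by a two-sided exact permutation test of the difference of means (252 splits, smallest p 0.00794), with Benjamini-Hochberg adjustment over the 20 and a threshold of 0.05. Tests of V genes within the TdLN set each gene against all other V genes of the same samples, which are not independent of it. Samples of a tissue come from separate mice, and samples of 1 number from the same mouse per the study. As a check of this pairing, same-numbered deviations of V gene shares correlated at -0.0641 to 0.298 for tumor 1 and TdLN, -0.366 to 0.367 for tumor 2 and TdLN and -0.303 to 0.511 for the tumors. The members and lists were chosen with earlier results of these data known. The TCRs named are, for each gene and tissue, that with most templates in a sample, and the V genes named as alike are the 2 with the highest Spearman rho. Alternatives were edgeR 4.0.16 and limma 3.58.1 (log2 of percent plus 0.1 or 1), with and without the mouse as a block, other definitions of a TCR, a minimum of 2 templates, out-of-frame joins, weights, V gene filters (all, or at least 2%) and samples left out. The stop codon comparison and the removals of tumor 2 of mouse 4 and of mice 3 and 5 were added after the data were seen. A share of 0 allows up to 3 of the total, which covers counting error only. Tests were checked on simulated data. Python 3.11.15, numpy 2.4.6, pandas 2.3.3, scipy 1.17.1, matplotlib 3.10.9 and R 4.3.3 were used.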

Additional observations from a re-analysis of the deposited data

Results flagged for a closer look

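Chance alone puts about 1 in 20 groups past the limit for a sample far from the others, and 27 groups were looked at. The share of Trbv2 among unique productive TCRs was 0 in tumor 2 of mouse 4, far below the other 4 samples of tumor 2 (2.42% to 2.89%), in a sample of 50 unique TCRs. The out-of-frame share of Trbv3 in the same sample, 15.4% (8 of 52), was far above the other 4. The out-of-frame share of Trbv4 in tumor 1 of mouse 1, 10.3% (20 of 195), was far above the other 4 samples of tumor 1.

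In 2 cases the mice of the 2 sample name styles moved in opposite directions, and the difference between the sets was not tested. For Trbv4 the unique share in tumor 2 minus TdLN averaged 1.53 percentage points in mice 1 to 3 and -2.50 in mice 4 and 5. For Trbv3 the template share in tumor 2 minus TdLN averaged 12.4 percentage points in mice 1 to 3 and -4.48 in mice 4 and 5.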

How the results depend on the processing

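Counts are numbers of the 20 V genes that passed, and differences are in percentage points unless stated. In tumor 1 minus TdLN by unique TCRs, where 0 passed, 4 passed with TCRs defined by V gene, J gene and CDR3 residues, 4 without small rearrangements near a far larger one, and 1 by edgeR without the mouse as a block. In tumor 2 minus TdLN edgeR gave 2 without and 2 with the block. By templates, the 4 V genes of tumor 1 minus TdLN became 0 without rearrangements of another mouse, 7 out of frame, 0 with all V genes tested and 7 by limma with the block. In tumor 2 minus TdLN limma gave 5 without and 5 with the block at a pseudocount of 0.1 and 7 at a pseudocount of 1, and without tumor 2 of mouse 4, a choice made after seeing the data, 4 passed. Without tumor 2 of mice 3 and 5, likewise chosen later, limma at 0.1 gave 5 by unique TCRs and 7 by templates. Productive against out of frame went from 11 to 4 with template shares. For the Trbj2 share 0 passed out of frame, 0 with 2 templates required and 0 weighted by templates. CDR3 length went from 8 to 4 with 2 templates required and to 0 weighted, V deletion from 15 to 8 weighted, clone size from 0 to 7 with 2 templates required, and the stop codon share from 8 to 13 weighted.

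The sign-flip test with the mouse as a replicate block cannot go below p = 0.0625 (exact), so each comparison that had calls gave 0 with it. Leaving out a mouse raised the smallest exact permutation p to 0.0286, at which 12 of the 20 V genes must reach it together to pass, against 4 with all mice. The count then ranged from 0 to 0 for template usage in tumor 1 minus TdLN, the Trbj2 share, CDR3 length and the stop codon share, and from 0 to 12 for productive against out of frame, where leaving out mouse 2, 4 or 5 ended the Trbv4 call (adjusted p = 0.0571). The Trbv4 template difference stayed at -3.52 to -3.25 points and its stop codon difference at 7.67 to 9.28 points.

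The reversals were all in differences that did not pass. Out of frame, the tumor 1 minus TdLN difference by unique rearrangements was 0.411 for Trbv2, 0.796 for Trbv3 and -1.82 for Trbv4, and by templates -2.29 for Trbv2 and 3.02 for Trbv3. Trbv3 gave 0.814 by unique rearrangements in tumor 2 minus TdLN and 1.27 by templates between the tumors, and N insertions gave -0.244 bases for Trbv2 and -0.232 for Trbv4. On the log2 scale Trbv4 in tumor 1 minus TdLN gave -0.00739 and -0.0443 by edgeR without and with the block, -0.11 and -0.11 by limma, and -0.0675 with a pseudocount of 1. edgeR gave 0.20 and 0.15 for Trbv4 in tumor 2 minus TdLN, and -0.16 and -0.00594 between the tumors. For Trbv2 templates in tumor 1 minus TdLN limma gave -0.58 without and -0.58 with the block, and -0.31 with a pseudocount of 1. In tumor 2 minus TdLN by unique TCRs, Trbv4 gave 0.285 by CDR3 residues, 1.48 with 2 templates required and 0.28 without small rearrangements, and Trbv3 0.0526 with 2 templates required and 1.5 without rearrangements of another mouse. Between the tumors Trbv4 gave -0.827 with 2 templates required, and 0.707 by templates without rearrangements of another mouse. Trbv2 in productive against non-productive gave 1.05 against stop codon joins and 0.703 by templates. Weighted by templates, N insertions of Trbv2 gave -0.00319 and CDR3 length of Trbv4 0.164 bases. Without rearrangements of another mouse the log2 clone size difference was 0.53 for Trbv2 and 0.0324 for Trbv3. The share of tumor 1 TCRs found in the TdLN gave 6.24 for Trbv3 with 2 templates required, and by templates -4.85 for Trbv2 and -15 for Trbv4.

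With a mouse left out, tumor 1 minus TdLN by unique TCRs ranged from -0.673 to 0.0777 for Trbv2 and from -1.04 to 0.998 for Trbv4, and by templates from -0.472 to 1.09 for Trbv2 and from -3.48 to 0.373 for Trbv3. Tumor 2 minus TdLN by unique TCRs ranged from -1.36 to 0.361 for Trbv3 and, with tumor 2 of mouse 4 alone left out included, from -0.854 to 1.06 for Trbv4. By templates Trbv4 ranged from -1.85 to 0.484 there, where the count ranged from 0 to 4, and by unique TCRs between the tumors from -0.782 to 0.94. For Trbv2 the Trbj2 share ranged from -2.8 to 1.99 and N insertions from -0.0139 to 0.257 bases, and for Trbv3 the share found in the TdLN from -8.11 to 2.61. The causes of these changes were not tested. Depth limits tumor 2 of mouse 4 most, where 3 of 238 templates is 1.26%.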
